A study of Mus musculus with 4 samples.

Results

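Lymphatic endothelial cells line the vessels that drain fluid and migrating leukocytes out of a tissue. The transcription factor Prox1 sets their identity, the receptor Flt4 (VEGFR3) carries the growth signal of Vegfc and Vegfd, and Mmrn1 encodes a secreted matrix protein of these cells. Capillary lymphatics are known for Lyve1, a hyaluronan receptor, and for Ccl21a, the chemokine that guides dendritic cells inward, whereas collecting vessels carry valves that need the transcription factors Foxc2 and Gata2. In the wall of large arteries such vessels run in the adventitia.

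Here 339 of 40565 kept cells were taken as lymphatic endothelial cells, out of 41399 deposited barcodes. A cell was kept with at least 200 genes and under 20% of its unique molecular identifiers (UMIs, 1 per captured transcript) from mitochondrial genes. Members were selected on measured values: at least 2 UMIs of Prox1, Mmrn1 and Flt4 together, at least 1 UMI of Pecam1 or Cdh5, no UMI of Ptprc and under 0.3% of UMIs from Acta2 and Tagln. Those 8 genes chose the cells, so their levels are given as a description with no test. The comparator was 1935 cells taken as blood endothelial cells, on measured values too. They had at least 2 UMIs of Pecam1 and Cdh5, none of the 3 lymphatic genes and the same limits on Ptprc, Acta2 and Tagln. The name blood endothelial stands below for this set, in which fibroblast transcripts also stood high. Endothelial cells below are the members and this set together.

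The cells came from ascending aortas of male wild-type (WT) mice, profiled by 10x 3′ single-cell RNA-seq in 4 libraries. AD-ABR mice (2 libraries) received β-aminopropionitrile (BAPN), an inhibitor of lysyl oxidase used to provoke aortic dissection, and by gavage also paquinimod, a small molecule that binds S100A9, at a daily 10 mg/kg. AD mice (2 libraries) received BAPN without paquinimod. BAPN was drunk with the water in both groups, at a daily 1 g/kg over 4 weeks that began at an age of 3 weeks, so no comparison here involves a mouse without BAPN. The labels do not say whether the libraries of a group came from separate animals, and p-values therefore measure only the spread between these libraries.

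Members numbered 32 and 25 in the AD-ABR libraries and 171 and 111 in the AD libraries. Their median depth was 7586.5 and 10214 UMIs per cell in AD-ABR and 5919 and 7467 UMIs in AD, and their summed counts were 333155 and 321394 UMIs in AD-ABR and 1420431 and 1055826 UMIs in AD. The ribosomal RNA repeat Rn18s-rs5 took 1.91 and 1.36% of member UMIs in AD-ABR and 5.92 and 3.6% in AD, and its part in the results was not tested beyond leaving it out of the totals, which gave 100 called genes. Between 18 and 36 barcodes were shared by any pair of libraries. Of the members, 1 and 3 in AD-ABR and 17 and 6 in AD were among the cells with the highest doublet scores.

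Markers of other cell types varied between the libraries' members. All 5 fibroblast markers were detected, summing to 1093 and 11914 CPM (their UMIs scaled to a fixed total) in AD-ABR and 1322 and 2241 CPM in AD, and in AD-ABR replicate 2 a group of 3 cells held 96.6% of those UMIs. All 5 macrophage markers were detected, at 30.02 and 759 CPM in AD-ABR and 68.3 and 82.4 CPM in AD, with 95.1% of the UMIs of AD-ABR replicate 2 in 3 cells. All 4 chondrocyte markers were detected, at 75.0 and 131 CPM in AD-ABR and 1143 and 79.6 CPM in AD, with 95.1% of the UMIs of AD replicate 1 in 3 cells. The 4 neutrophil markers summed to 0 and 0 CPM in AD-ABR and 190.1 and 0 CPM in AD, and the 3 smooth muscle markers outside the rule to 63.0 and 43.6 CPM in AD-ABR and 24.6 and 49.3 CPM in AD. The 10 blood endothelial markers, all detected, summed to 1852 and 1724 CPM in AD-ABR and 2569.6 and 2254 CPM in AD, both AD-ABR libraries lying below both AD libraries. This list separated members from the cells taken as blood endothelial only in part. Vwf, Cd34, Ly6c1, Gja5 and Aqp1 were lower in the members in every library. Emcn and Plvap were higher there in every library, and Flt1 in all but AD replicate 2. Sox17 and Esm1 differed in direction between libraries. The T cell genes Cd3e and Cd3d and the Schwann cell gene Sox10 were at 0 in the members. Fibroblast transcripts also stood high in the cells taken as blood endothelial. Dcn had 7078 and 6434 CPM there in AD-ABR and 3010 and 2759 CPM in AD. Col3a1 had 4277 and 6968 CPM there in AD-ABR and 2700 and 3739 CPM in AD. The endothelial gene Vwf had 334 and 272 CPM there in AD-ABR and 439 and 473 CPM in AD. The part of these cells and transcripts in the results was not tested.

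How well the label held varied among the members. The rule used Prox1, Mmrn1 and Flt4, so their joint presence is no separate support for it. UMIs of all 3 of Prox1, Mmrn1 and Flt4 were found in 192 of 339 cells, of exactly 2 in 71 cells and of a single gene in 76 cells, namely Prox1 in 50, Flt4 in 20 and Mmrn1 in 6. Cells with all 3 made up 65.6 and 60% of AD-ABR members and 50.9 and 62.2% of AD members (62.8 ± 3.98% and 56.5 ± 7.98%, SD, n = 2 each; exact permutation p = 0.667). Lyve1 or Ccl21a, which the rule did not use, had a UMI in 173 of the 339 members (51.03%). By library this was 50 and 44% in AD-ABR and 62.0 and 36.0% in AD. The share was 118 of the 192 cells with all 3 genes (61.5%), 18 of the 50 with Prox1 alone (36%) and 6 of the 20 with Flt4 alone (30%).

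Cells with all 3 genes had the profile of the label. Pooled over libraries, they held 1173 CPM of Lyve1, 3519 CPM of Ccl21a, 230.5 CPM of the secreted glycoprotein gene Reln and 2149 CPM of the neuropeptide precursor gene Nts, where blood endothelial cells held 18.8, 213, 0.279 and 13.96 CPM. The blood endothelial genes Vwf, Flt1 and Nrp1 stood at 107, 50.5 and 7.40 CPM in them, where blood endothelial cells held 367, 108 and 276 CPM. Emcn and Plvap, which blood endothelial cells also express, were higher in them, at 402 and 516 CPM, where blood endothelial cells held 267 and 205 CPM. Cells with Prox1 alone or Flt4 alone had a mixed profile. With Prox1 alone, Lyve1, Nts and the semaphorin receptor gene Nrp2 stood at 129, 529 and 125 CPM, above the 18.8, 13.96 and 23.7 CPM of blood endothelial cells, while Reln was at 0 and Vwf and Flt1 stood at 731 and 456 CPM. With Flt4 alone, Nts and Nrp2 stood at 191 and 51.9 CPM, Lyve1 at 16.5 CPM and Reln at 0, and Vwf, Flt1 and Esm1 stood at 504, 446 and 200.4 CPM. Results that rest on these cells are given with and without them.

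**Figure D1:**
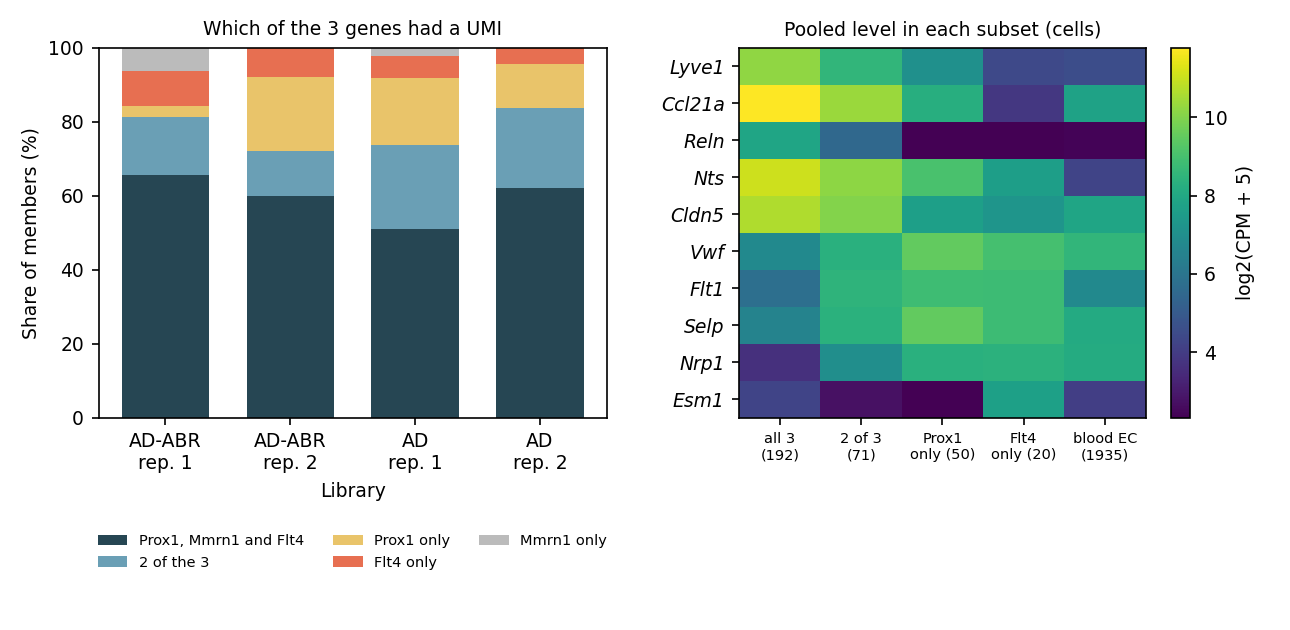
Left, share of members (%) in each library by which of Prox1, Mmrn1 and Flt4 had a UMI; right, pooled level of selected genes in each subset of members and in blood endothelial cells, as log2 of CPM with 5 CPM added, and the number of cells in brackets. Cells with all 3 genes made up between 50.9 and 65.6% of each library's members and carried Lyve1, Ccl21a, Reln and Nts.

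At the edge of the rule, 38 and 38 cells in AD-ABR and 59 and 71 cells in AD had only 1 UMI of the 3 genes and were left out. Lyve1 or Ccl21a was seen in 2 and 2 of these in AD-ABR and in 12 and 8 in AD. Just inside it, 2 and 7 members in AD-ABR and 32 and 12 in AD had exactly 2 UMIs, with Lyve1 or Ccl21a in 1 and 1 of them in AD-ABR and in 16 and 1 in AD.

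Several genes outside the rule set members apart from blood endothelial cells in all 4 libraries. These are a description, because the rule separated the cells. Nts had the largest lowest-library ratio, with 3449 and 2100.2 CPM in AD-ABR members and 888 and 1370.5 CPM in AD members, where it had 1.3 and 7.03 CPM in AD-ABR blood endothelial cells and 39.3 and 17.8 CPM in AD blood endothelial cells. Reln followed, with 84 and 205 CPM in AD-ABR members and 132 and 114 CPM in AD members, where blood endothelial cells held at most 0.527 CPM in any library. The guidance molecule genes Sema3a and Sema3d, the endothelin receptor gene Ednrb, the transcription factor gene Maf, the Notch modifier gene Dtx1, the iron-siderophore carrier gene Lcn2 and the G-protein regulator gene Rgs16 were among the 15 genes named by this measure. Sema3d had 414 and 268 CPM in AD-ABR members and 234 and 206 CPM in AD members, and 20.8 and 21.4 CPM in AD-ABR blood endothelial cells and 17.5 and 15.3 CPM in AD blood endothelial cells. Maf had 450.2 and 454 CPM in AD-ABR members and 473 and 272 CPM in AD members, and 31.2 and 32.9 CPM in AD-ABR blood endothelial cells and 28.7 and 16.2 CPM in AD blood endothelial cells. For both genes the lowest library of members was above the highest of blood endothelial cells.

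The first comparison asked how large a share of the cells was lymphatic. Members made up 0.351 and 0.231% of kept cells in AD-ABR, with exact 95% binomial intervals of 0.240 to 0.495% and 0.150 to 0.341%, against 1.72 and 1.04% in AD, with intervals of 1.47 to 1.99% and 0.854 to 1.248%. Both AD-ABR libraries were lower than both AD libraries, and the intervals did not overlap between groups. The means were 0.291 ± 0.0846% in AD-ABR and 1.38 ± 0.482% in AD (SD, n = 2 each), a log2 ratio of −2.24. The exact permutation test over libraries gave p = 0.333, two-sided, the smallest that 2 libraries against 2 allow. The intervals cover counting error only.

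Among endothelial cells, that is members and cells taken as blood endothelial, the same order was seen. The latter also carried fibroblast transcripts, with 7078 and 6434 CPM of Dcn in AD-ABR and 3010 and 2759 CPM in AD. Their part in this share was not tested. Members were 6.77 and 4.06% of endothelial cells in AD-ABR and 32.4 and 16.9% in AD (5.41 ± 1.91% and 24.6 ± 10.95%, SD, n = 2 each), a log2 ratio of −2.19 with an exact permutation p of 0.333. Blood endothelial cells were 5.15 ± 0.447% of kept cells in AD-ABR and 4.35 ± 1.07% in AD (SD, n = 2 each), with overlapping libraries (exact permutation p = 0.667). Cells with all 3 lymphatic genes were 0.230 and 0.139% of kept cells in AD-ABR and 0.875 and 0.645% in AD, a log2 ratio of −2.04. With each cell thinned to 3000 UMIs, members were 0.298 and 0.173% of kept cells in AD-ABR and 1.82 and 0.95% in AD, a log2 ratio of −2.56. Accepting a single UMI of the lymphatic genes moved the log2 ratio to −1.57.

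**Figure D2:**
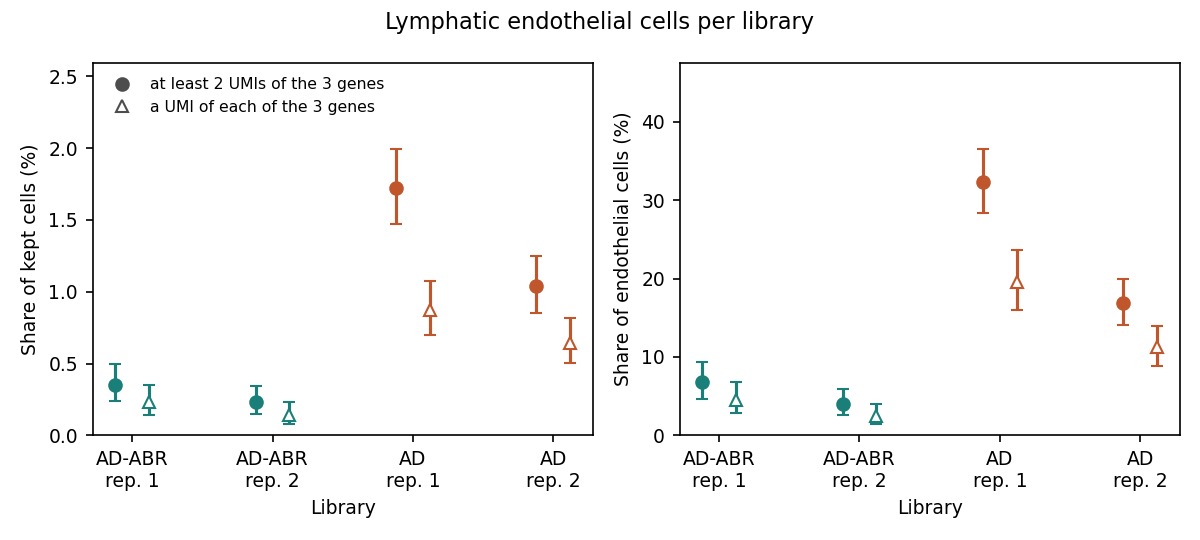
Share of kept cells (left) and of endothelial cells (right), both in %, that met the rule or had a UMI of each of Prox1, Mmrn1 and Flt4 (open symbols), by library; bars are exact 95% binomial intervals. Both AD-ABR libraries lie below both AD libraries, at 0.351 and 0.231% of kept cells against 1.72 and 1.04%.

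The second comparison asked which genes changed inside the members, on UMIs summed per library. Of 7920 genes tested, 102 passed an adjusted p of 0.05 in edgeR's quasi-likelihood test with Benjamini-Hochberg adjustment, and 40 of them rose and 62 fell in AD-ABR. That background was 1.29% of genes tested in either direction, 0.505% for rises and 0.783% for falls, with a median log2 fold change of −0.01 over all genes. Of the 102 genes, 8 that rose and 9 that fell stood at a higher level in the other cells of their group than in the members, so that free RNA could reach them, and they were kept out of the largest changes. The count was 148 or 387 without AD replicate 1 or replicate 2, 213 or 188 without AD-ABR replicate 1 or replicate 2, and 32 with the likeliest doublets removed.

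Genes of the cell cycle led the falls. Mki67, which encodes the proliferation antigen Ki-67 (chromosome 7, positions 135689784 to 135716361, GRCm38), had 0 and 0 UMIs in AD-ABR members and 148 and 91 UMIs in AD members, the AD counts being 104 and 86.2 CPM. Both AD-ABR libraries were at 0, at least 21.1-fold lower against a floor of 3 counts over the group (adjusted p = 0.00242, edgeR). This bound and those given below take each UMI as independent. UMIs that lie in few cells are not, so the bounds overstate the smallest fall the counts allow. The UMIs of Mki67 came from 17 and 11 AD cells, a single cell holding 43.2% and 24.2% of them by library. Pclaf, a partner of the replication clamp PCNA, had 0 and 0 UMIs in AD-ABR members and 146 and 89 UMIs in AD members, at least 20.7-fold lower (adjusted p = 0.00242, edgeR). Both genes also passed among cells with all 3 lymphatic genes (adjusted p = 0.0026 and 0.00367, edgeR). With 1 UMI in the rule, Mki67 lost the call (log2 fold change −1.80, adjusted p = 0.557, edgeR) and Pclaf kept it (−3.21, adjusted p = 0.0284, edgeR). Top2a, the topoisomerase that untangles chromosomes before division (chromosome 11, positions 98992943 to 99024189, GRCm38), had 1 and 0 UMIs in AD-ABR members and 123 and 130 UMIs in AD members, a ratio of AD to AD-ABR of 66.9 with an exact 95% counting interval of 11.9 to 2652 (adjusted p = 0.00242, edgeR). That interval also takes each UMI as independent and is too narrow where few cells hold them. Among cells with all 3 genes Top2a did not pass (adjusted p = 0.0778, edgeR).

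All of the 12 largest falls, Mki67 and Pclaf among them, had no UMI in AD-ABR. They included Ube2c, the ubiquitin-conjugating enzyme of the anaphase-promoting complex, with 0 and 0 UMIs in AD-ABR members and 81 and 127 UMIs in AD members, and 75.3 and 66.9% of the AD UMIs lay in a single cell of each library. The linker histone gene H1f5, the spindle genes Prc1, Cenpe, Hmmr and Kif11, the centromere guardian gene Sgo2a and the chromatin remodeller gene Hells were at least 18, 15.8, 8.55, 6.61, 6.78, 6.7 and 8.02-fold lower. These bounds too take each UMI as independent. With the likeliest doublets removed, H1f5, Prc1 and Hells lost the call (adjusted p = 0.507, 0.421 and 0.0873, edgeR) and Ube2c, Cenpe, Hmmr, Kif11 and Sgo2a had too few counts to be tested. Without AD replicate 1, Hmmr and Sgo2a lost it (adjusted p = 0.0547 and 0.368), and without AD replicate 2 Kif11 lost it (adjusted p = 0.146, edgeR). With 1 UMI in the rule, Ube2c, Prc1, Cenpe, Hells, Hmmr, Kif11 and Sgo2a lost it (adjusted p = 0.309, 0.435, 0.141, 0.0948, 0.319, 0.223 and 0.148, edgeR). H1f5 kept it there (adjusted p = 0.00535, edgeR). None of these 8 genes had enough counts to be tested among cells with all 3 lymphatic genes.

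Of the 24 genes of the cell cycle list, 21 were tested in the members and 10 fell, against 0.783% of all genes. These were Mki67, Top2a, Cenpf, Tpx2, Cenpe, Hmgb2, Ccna2, Ube2c, Mcm3 and Stmn1. None rose, and the list's median log2 fold change was −2.95 with the 7 genes at 0 in AD-ABR set at their bound. The list summed to 342 and 317 CPM in AD-ABR members and 1528 and 1675 CPM in AD members. In blood endothelial cells 12 of 24 fell, with a median of −1.82, where 4.41% of 12552 genes fell and the list summed to 352 and 458 CPM in AD-ABR and 977 and 1024 CPM in AD. Of the list's 24 genes tested for the difference between the cell types, only Ube2c and Birc5 passed, with a lower lymphatic change. Over all genes 0.24% did so. Ube2c had no UMI in AD-ABR members, so the size of its fitted difference rests on the floor. Mki67 missed the threshold (adjusted p = 0.0545, edgeR).

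Few cells carried these transcripts. A UMI of Mki67 or Top2a was seen in 1 of 32 and 0 of 25 AD-ABR members and in 21 of 171 and 16 of 111 AD members (12.3 and 14.4%). The 1 of 32 is 3.12%, and the 0 of 25 allows a share of up to 12% by a floor of 3 counts. Exact 95% intervals were 0.0791 to 16.2% and 0 to 13.7% for the AD-ABR libraries and 7.77 to 18.2% and 8.47 to 22.4% for the AD libraries, so that the libraries' intervals overlap. The exact permutation test of the libraries' shares gave p = 0.333, two-sided, the smallest that 2 libraries against 2 allow. Summed over libraries, 1 of 57 AD-ABR members (1.75%) and 37 of 282 AD members (13.1%) had such a UMI. No interval is given for these sums, because cells are not replicates of a treatment. In blood endothelial cells the share was 3.63 and 2.71% in AD-ABR and 11.2 and 9.71% in AD. In smooth muscle cells it was 1.90 and 1.95% in AD-ABR and 6.01 and 4.62% in AD, at median depths of 10288 and 9329.5 UMIs in AD-ABR and 8279.5 and 8018 UMIs in AD. Thinned to 3000 UMIs, the members' shares were 3.45 and 0% in AD-ABR and 8.28 and 11.1% in AD. Of the 37 AD members with such a UMI, 19 had all 3 lymphatic genes, 16 had Lyve1 or Ccl21a and 6 were among the likeliest doublets. Their median depth was 10385 and 12583.5 UMIs, where the other AD members had 5668 and 6718 UMIs.

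The promoters of Mki67, Top2a and Ube2c are shown because their transcripts fell together and each holds the letters TTTGAA, on either strand, of the cell cycle genes homology region. They are RefSeq sequence on GRCm38.p6 from 120 bases before to 30 bases after the annotated start, 5′ to 3′ on the gene's strand, with each match in capitals (TTCAAA is the match on the opposite strand):
Mki67 (chr7:135716350-135716499, minus strand): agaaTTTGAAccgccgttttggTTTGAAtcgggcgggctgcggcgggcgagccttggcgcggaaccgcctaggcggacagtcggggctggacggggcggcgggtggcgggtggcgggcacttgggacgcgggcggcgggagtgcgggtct
Top2a (chr11:99024160-99024309, minus strand): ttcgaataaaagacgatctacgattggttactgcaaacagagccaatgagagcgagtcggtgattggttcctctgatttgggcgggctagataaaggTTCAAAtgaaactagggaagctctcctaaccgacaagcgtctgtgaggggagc
Ube2c (chr2:164769809-164769958, plus strand): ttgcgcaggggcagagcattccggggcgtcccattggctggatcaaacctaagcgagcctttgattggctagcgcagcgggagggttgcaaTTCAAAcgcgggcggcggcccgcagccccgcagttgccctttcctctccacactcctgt
In windows from 250 bases before to 50 after the start, TTTGAA on either strand stood in 10 of the 20 promoters matched from the cell cycle list (50%) and in 4893 of 27025 promoters in all (18.1%). Cenpe and Mcm3, which also fell, had no match in this window. A match describes the letters and is no evidence that a factor bound there.

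Esm1 and Apln, genes of sprouting tip cells in blood vessels, fell in AD-ABR members, and their UMIs came from few AD cells. Esm1 had 0 and 0 UMIs in AD-ABR members and 73 and 36 UMIs in AD members, at least 9.6-fold lower (adjusted p = 0.0154, edgeR), from 4 and 2 AD cells. With so few cells, the 9.6-fold bound, which takes each UMI as independent, is no limit on the fall. Cells with Flt4 alone held 98.6% and 36.1% of these UMIs, and without AD replicate 1 the call was lost (adjusted p = 0.312). Apln had 0 and 0 UMIs in AD-ABR members and 53 and 22 UMIs in AD members (adjusted p = 0.035, edgeR), with 98.1% and 100% of them in cells with Flt4 alone and none in cells with all 3 lymphatic genes. Epha7, an ephrin receptor gene, had 0 and 0 UMIs in AD-ABR members and 30 and 43 UMIs in AD members (adjusted p = 0.035, edgeR), with 79.1% of the UMIs of AD replicate 2 in a single cell, and lost the call without AD replicate 1 (adjusted p = 0.071).

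**Figure D3:**
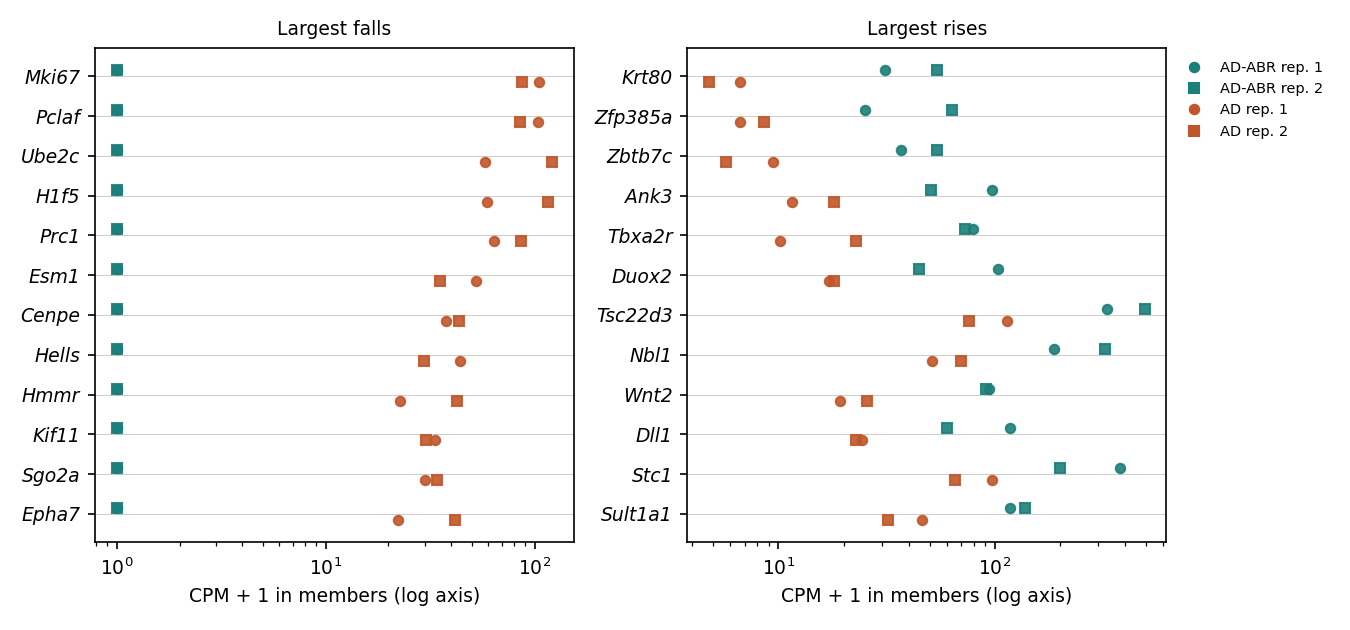
Level in the members of the 12 genes with the largest falls (left) and the 12 with the largest rises (right) among those that passed, as CPM with 1 CPM added on a log axis; circles are replicate 1 and squares replicate 2. Both AD-ABR libraries sit at 0 CPM for each gene on the left, where Mki67 reaches 104 CPM in AD. On the right both AD-ABR libraries lie above both AD libraries for each gene. The genes were chosen by the test on these same libraries, so the separation is no added support.

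Tsc22d3, the glucocorticoid-induced leucine zipper gene (chromosome X, positions 140539528 to 140600659, GRCm38), was the only named rise that passed under every alternative run. It had 327 and 492 CPM in AD-ABR members and 113 and 74.8 CPM in AD members (409 ± 116 and 93.7 ± 26.7 CPM, SD, n = 2 each). The groups did not overlap, and the log2 fold change was 2.10 ± 0.29 (SE; adjusted p = 0.0145, edgeR), between 1.60 and 2.44 over 15 alternatives. It rose in blood endothelial cells too (1.65 ± 0.22, SE; adjusted p = 0.00521, edgeR), and the difference did not pass (adjusted p = 0.517). Txnip, whose product binds thioredoxin, had 1321 and 1325 CPM in AD-ABR members and 487 and 612 CPM in AD members, a log2 fold change of 1.26 ± 0.22 (SE; adjusted p = 0.0236, edgeR). In blood endothelial cells Txnip had 386 and 431 CPM in AD-ABR blood endothelial cells and 341 and 333 CPM in AD blood endothelial cells, and the difference between the cell types passed (adjusted p = 0.0302, edgeR). Of 16 tested genes of the glucocorticoid response list these 2 rose and none fell, against 0.505% rises over all genes, with a list median of 0.66. In blood endothelial cells 6 of 18 rose, where 3.48% of all genes rose, with a median of 0.25. Lcn2, with 465 and 706 CPM in AD-ABR members and 122 and 239.6 CPM in AD members, and Klf9, a transcription factor gene of the list, did not pass (adjusted p = 0.0677 and 0.0812, edgeR).

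Wnt2, Nbl1, Tbxa2r, Dll1 and Stc1 were among the 12 largest rises. Wnt2, a Wnt ligand gene, had 93 and 90.2 CPM in AD-ABR members and 18.3 and 24.6 CPM in AD members, a log2 fold change of 2.09 ± 0.32 (SE; adjusted p = 0.0145, edgeR). Nbl1, which encodes an antagonist of bone morphogenetic proteins, had 186 and 324 CPM in AD-ABR members and 49.98 and 69.1 CPM in AD members, a log2 fold change of 2.09 ± 0.31 (SE; adjusted p = 0.0145, edgeR). Tbxa2r, the thromboxane A2 receptor gene, had 78 and 71.6 CPM in AD-ABR members and 9.15 and 21.8 CPM in AD members (adjusted p = 0.0242, edgeR). For these 3 genes both AD-ABR libraries were above both AD libraries, and all 3 also passed among cells with all 3 lymphatic genes (adjusted p = 0.00334, 0.0112 and 0.00875, edgeR). With 1 UMI in the rule none of the 3 passed (adjusted p = 0.264, 0.338 and 0.127, edgeR). The Notch ligand gene Dll1 had 117 and 59.1 CPM in AD-ABR members and 23.2 and 21.8 CPM in AD members, a log2 fold change of 1.95 ± 0.37 (SE; adjusted p = 0.0282, edgeR), and lost the call without AD-ABR replicate 1 (adjusted p = 0.144). Stc1, the stanniocalcin 1 gene, had 378 and 199 CPM in AD-ABR members and 95.7 and 64.4 CPM in AD members, a log2 fold change of 1.83 ± 0.35 (SE; adjusted p = 0.0457, edgeR). Its UMIs came from 12 and 4 AD-ABR cells and 34 and 27 AD cells, and 78.1% of those of AD-ABR replicate 2 lay in a single cell.

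The other large rises had lower counts. Krt80, a keratin gene, had 10 and 17 UMIs in AD-ABR members and 8 and 4 UMIs in AD members (log2 fold change 3.05, adjusted p = 0.0228, edgeR), with 80% and 52.9% of the AD-ABR UMIs in cells with Flt4 alone. It lost the call without AD replicate 1, AD replicate 2 or AD-ABR replicate 2 (adjusted p = 0.112, 0.095 and 0.143). Zfp385a (2.68) lost it without the same 3 libraries (adjusted p = 0.118, 0.0536 and 0.396), and Zbtb7c (2.67) without AD replicate 2 or AD-ABR replicate 2 (0.0503 and 0.0553). Ank3, the ankyrin G gene (2.41), and Duox2, which encodes a hydrogen peroxide-forming oxidase (2.12), lost it without AD-ABR replicate 1 (0.0624 and 0.228). Sult1a1, a sulfotransferase gene, had 117 and 137 CPM in AD-ABR members and 45.1 and 31.3 CPM in AD members (1.70 ± 0.30, SE; adjusted p = 0.0228, edgeR). Of 22 tested Notch and BMP signalling genes, Dll1 and Acvrl1, a receptor of BMP9, rose and none fell, against 0.505% rises over all genes, and the median was −0.06.

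Of 24 tested lymphatic identity genes, Cp (ceruloplasmin) and Fxyd6 (a regulator of ion transport) rose and Ptx3 fell, where 1.29% of all genes passed in either direction, and the list's median was 0.26. Cp had 909 and 753 CPM in AD-ABR members and 301 and 445 CPM in AD members (1.15 ± 0.25, SE; adjusted p = 0.0476, edgeR). Fxyd6 had 855 and 650.3 CPM in AD-ABR members and 324 and 384 CPM in AD members (1.08 ± 0.24, SE; adjusted p = 0.0491, edgeR). Both lost the call without AD-ABR replicate 1 (adjusted p = 0.142 and 0.221) and among cells with all 3 lymphatic genes (0.0997 and 0.15). Ptx3, which encodes a secreted pattern-recognition protein, had 1 and 2 UMIs in AD-ABR members and 104 and 46 UMIs in AD members, a ratio of AD to AD-ABR of 13.2 with an exact 95% counting interval of 4.44 to 64.8 (adjusted p = 0.0208, edgeR). That interval takes each UMI as independent. Cells with all 3 genes held 85.6% and 82.6% of the AD UMIs of Ptx3, and its fall passed there too (adjusted p = 0.035, edgeR). Ptx3 is a gene that free RNA could reach.

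Ccl21a had a wide gap and did not pass. It had 585 and 174 CPM in AD-ABR members and 2606 and 2519 CPM in AD members (379.8 ± 291 and 2562 ± 60.9 CPM, SD, n = 2 each). Both AD-ABR libraries were below both AD libraries, with a log2 fold change of −2.76 ± 0.65 (SE; adjusted p = 0.256, edgeR), and the adjusted p ranged from 5.63e-07 to 0.888 over 15 alternatives. It passed without AD-ABR replicate 1 or replicate 2 (adjusted p = 1.68e-06 and 0.00248) and among cells with all 3 lymphatic genes (0.01), where 99.5% and 100% of its AD-ABR UMIs lay. A single cell held 51.8% and 66.1% of those UMIs by library. A UMI was seen in 21.9 and 20% of AD-ABR members and 35.1 and 27.9% of AD members, and in 0.123 and 0.0737% of AD-ABR smooth muscle cells and 2.36 and 0.501% of AD smooth muscle cells, which should lack it. The genome holds near-identical copies of Ccl21a, so its level is uncertain. In AD replicate 1, 53 of 357 blood endothelial cells (14.8%) also had a UMI of it, 40 of them at least 2 UMIs, where AD-ABR had 0 of 441 and 0 of 591 and AD replicate 2 had 1 of 546. Those cells had no UMI of Prox1, Mmrn1 or Flt4 and stayed outside the rule.

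Lyve1 overlapped between the groups, with 432 and 759 CPM in AD-ABR members and 659.7 and 822 CPM in AD members (adjusted p = 0.699, edgeR). Reln, Pdpn and Nrp2, further lymphatic genes, did not pass (adjusted p = 0.876, 0.985 and 0.947, edgeR). Of 18 tested genes of valves and collecting vessels, none rose and Vcam1 fell, against 0.783% falls over all genes, with a median of 0.26. Foxc2 had a UMI in 56.2 and 44% of AD-ABR members and 35.1 and 30.6% of AD members. Thinned to 3000 UMIs these were 31.03 and 20% in AD-ABR and 21.02 and 15.7% in AD, while 29.8 and 22.3% of AD-ABR and 23.7 and 21.2% of AD smooth muscle cells, unthinned, also had one. Of the rule's own genes, Prox1 had 660.4 and 389 CPM in AD-ABR members and 417 and 438 CPM in AD members, Mmrn1 had 1306 and 1288 CPM in AD-ABR members and 857 and 719.8 CPM in AD members and Flt4 had 336 and 324 CPM in AD-ABR members and 342 and 332 CPM in AD members. Of 22 tested lymphangiogenic ligands and receptors none rose and Apln alone fell, against the same 0.783%, with a median of −0.15. Of 28 tested in blood endothelial cells, 7 fell, where 4.41% of all genes fell, with a median of −0.43.

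Selp, which encodes the leukocyte-tethering P-selectin, was lower in AD-ABR members. It had 39 and 59.1 CPM in AD-ABR members and 419 and 237 CPM in AD members (49.1 ± 14.2 and 328 ± 129 CPM, SD, n = 2 each), with groups that did not overlap and a log2 fold change of −2.76 ± 0.37 (SE; adjusted p = 0.0145, edgeR). Members held 32 Selp UMIs in AD-ABR and 845 in AD. Cells with all 3 lymphatic genes held 7.69% and 0% of them by library in AD-ABR and 8.4% and 38% in AD. Among these cells the fall passed (log2 fold change −5.41, adjusted p = 0.00126, edgeR), but its size rests on an AD-ABR count near the floor. Among cells with 2 or 3 of the genes it did not pass (log2 fold change −2.71, adjusted p = 0.152, edgeR). Selp fell in blood endothelial cells by 2.33 on the log2 scale, and the difference did not pass (adjusted p = 0.766). Vcam1, an integrin ligand gene, had 324 and 224 CPM in AD-ABR members and 580.1 and 629.8 CPM in AD members (−1.15 ± 0.25, SE; adjusted p = 0.0457, edgeR) and lost the call without AD-ABR replicate 2 (adjusted p = 0.275). Its log2 fold change was −3.95 among cells with all 3 lymphatic genes, where it passed (adjusted p = 0.0112, edgeR), and −1.74 among cells with 2 or 3 of them, where it did not (adjusted p = 0.591). Cells with Flt4 alone held 93.5% and 29.2% of its AD-ABR UMIs and 39.1% and 10.8% of its AD UMIs.

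Of 27 tested genes of leukocyte entry and migration, Selp and Vcam1 fell in the members and none rose, against 0.783% falls over all genes, with a median of −0.65. In blood endothelial cells 9 of 27 fell and 1 rose, where 4.41% of all genes fell and 3.48% rose, with a median of −1.11. The summed blood endothelial markers were also lower in AD-ABR members, and their part in these falls was not tested. Vcam1 was also the only one of 28 tested NF-kB targets and regulators to fall, against 0.783% falls over all genes. All 28 log2 fold changes were negative, with a median of −0.87, where the median over all genes was −0.01. Of 29 NF-kB genes tested in blood endothelial cells, 19 fell, against 4.41% of all genes, with a median of −1.31. Free RNA could reach 16 of the 28 NF-kB genes and 9 of the 27 leukocyte genes in the members. Of 29 NF-kB genes tested for the difference, Nfkbia and Nfkbiz passed with the higher lymphatic change, where 0.713% of all genes did. Their differences were 1.17 and 1.02 on the log2 scale (adjusted p = 0.00350 and 0.0312, edgeR).

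Both chains of the main collagen of basement membranes fell in the members. Col4a1 had 270.1 and 224 CPM in AD-ABR members and 726 and 511 CPM in AD members (−1.34 ± 0.26, SE; adjusted p = 0.0307, edgeR). Col4a2 had 123 and 118 CPM in AD-ABR members and 345 and 273 CPM in AD members (−1.37 ± 0.25, SE; adjusted p = 0.0242, edgeR). Both AD-ABR libraries were below both AD libraries for each, and both genes passed among cells with all 3 lymphatic genes (adjusted p = 0.0245 and 0.0303). Without AD-ABR replicate 2, Col4a1 lost the call (adjusted p = 0.0991). In blood endothelial cells each had a log2 fold change of −0.13 and did not pass, and the difference passed for both (adjusted p = 0.012 and 0.0125, edgeR). These were 2 of 30 tested genes of the basement membrane and matrix list, against 0.783% falls over all genes. None of the other 28 passed in the members, and the list's median was 0.04.

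Other lists held 1 called gene or none, where 1.29% of all genes passed. Of 17 sterol and fatty acid synthesis genes, Cyp51, the lanosterol demethylase gene, fell with 0 and 2 UMIs in AD-ABR members and 48 and 37 UMIs in AD members (adjusted p = 0.0476, edgeR), and the median was −1.17. Srebf2, the regulator of sterol synthesis, and Hmgcs1, an enzyme of the mevalonate pathway, had log2 fold changes of −1.78 and −1.40 and did not pass (adjusted p = 0.0555 and 0.0801, edgeR). Cd74, the invariant chain of MHC class II, was the only one of 12 antigen presentation genes to pass, with 21 and 28 CPM in AD-ABR members and 81 and 153 CPM in AD members (adjusted p = 0.0307, edgeR), and 74.7% of the UMIs of AD replicate 2 lay in a single cell. Free RNA could reach Cyp51 and Cd74. None of 17 interferon response genes passed (edgeR; median −0.62), none of 18 junction genes (0.15), none of 18 unfolded protein response genes (0.27), none of 23 immediate early genes (0.06), none of 15 lipid genes (−0.35), none of 11 S100 genes and receptors (0.23) and none of 18 genes of shear and endothelial state (−0.06). Over all genes, 989 had an unadjusted p under 0.05.

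**Figure D4:**
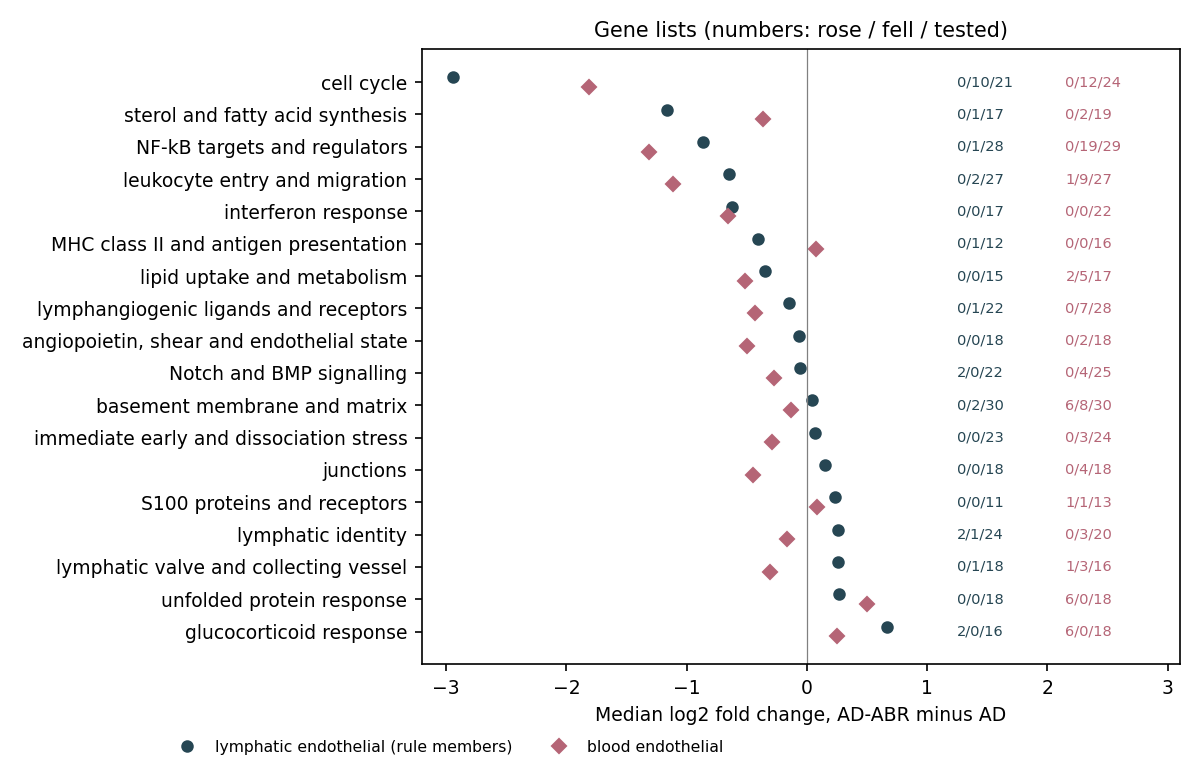
Median log2 fold change (AD-ABR minus AD) of each gene list in lymphatic and in blood endothelial cells, with the numbers that rose, fell and were tested; genes at 0 in AD-ABR members enter the lymphatic median at their bound. The cell cycle list was the lowest in lymphatic cells, at −2.95, and the glucocorticoid response list the highest, at 0.66.

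The third comparison asked which genes changed differently in lymphatic and blood endothelial cells of the same libraries. The test of the difference was passed by 115 of 12059 genes (0.954%), with the lymphatic change higher for 86 (0.713%) and lower for 29 (0.24%). Of the 86, 46 fell in blood endothelial cells, 11 rose in the members and 29 passed in neither cell type alone. Of the 29 with the lower lymphatic change, 11 fell in the members, while in blood endothelial cells 8 rose and 3 fell. Of the 102 genes called in the members, 43 were called in blood endothelial cells, in the same direction, where 7.9% of genes passed. The count of differences was 186 or 359 without AD replicate 1 or replicate 2 and 56 or 35 without AD-ABR replicate 1 or replicate 2.

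Kdr, Rgs16, Cldn5 and Itga6 fell in blood endothelial cells and did not pass in the members. Kdr, the VEGFR2 gene, had 351 and 299 CPM in AD-ABR members and 297 and 230.2 CPM in AD members, and 6.93 and 5.45 CPM in AD-ABR blood endothelial cells and 51.5 and 33.5 CPM in AD blood endothelial cells. The log2 difference was 3.02 ± 0.25 (SE; adjusted p = 5.25e-05, edgeR). Rgs16, a brake on G-protein signalling, had 465 and 215 CPM in AD-ABR members and 343 and 300.2 CPM in AD members, and 2.38 and 1.93 CPM in AD-ABR blood endothelial cells and 38.1 and 28.7 CPM in AD blood endothelial cells, a log2 difference of 3.89 ± 0.31 (SE; adjusted p = 4.90e-05, edgeR). The tight junction gene Cldn5 had 1749.9 and 1746 CPM in AD-ABR members and 673 and 1227 CPM in AD members, and 178 and 130.4 CPM in AD-ABR blood endothelial cells and 262 and 387 CPM in AD blood endothelial cells, a log2 difference of 1.96 ± 0.20 (SE; adjusted p = 0.000456, edgeR). Itga6, a laminin-binding integrin gene, had 108 and 80.9 CPM in AD-ABR members and 175 and 109 CPM in AD members, and 5.85 and 4.39 CPM in AD-ABR blood endothelial cells and 73 and 38.2 CPM in AD blood endothelial cells, a log2 difference of 2.78 ± 0.31 (SE; adjusted p = 0.000921, edgeR). In each, the blood endothelial pools of the groups did not overlap. Of lymphatic genes outside the rule, Nrp2 had 5.63 and 4.22 CPM in AD-ABR and 74.3 and 31.2 CPM in AD blood endothelial cells. Nts had 1.3 and 7.03 CPM there in AD-ABR and 39.3 and 17.8 CPM in AD. Reln and Sema3d were not lower there in AD-ABR. Lymphatic cells without a UMI of the 3 genes would count as blood endothelial, and their part in these falls was not tested. Nor was that of the fibroblast transcripts in the cells taken as blood endothelial, where Dcn stood higher in AD-ABR than in AD.

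Lgals1, which encodes galectin 1, went the other way, with 135 and 236 CPM in AD-ABR members and 473 and 525 CPM in AD members, and 953 and 1155 CPM in AD-ABR blood endothelial cells and 764 and 971 CPM in AD blood endothelial cells. The members' fall of 1.43 on the log2 scale passed (adjusted p = 0.0307, edgeR), as did the difference of −1.79 ± 0.21 (SE; adjusted p = 0.00106, edgeR), and free RNA could reach this gene. Stc1 and Dll1, which rose in the members, also passed the difference, at 3.04 and 2.64 (adjusted p = 0.00106 and 0.00168, edgeR). The histone gene H2ac24 had 0 and 2 UMIs in AD-ABR members and 415 and 146 UMIs in AD members and a single cell held 66% of those of AD replicate 1. The cells of AD replicate 1 that held Ccl21a were counted as blood endothelial, and their part in these differences was not tested.

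**Figure D5:**
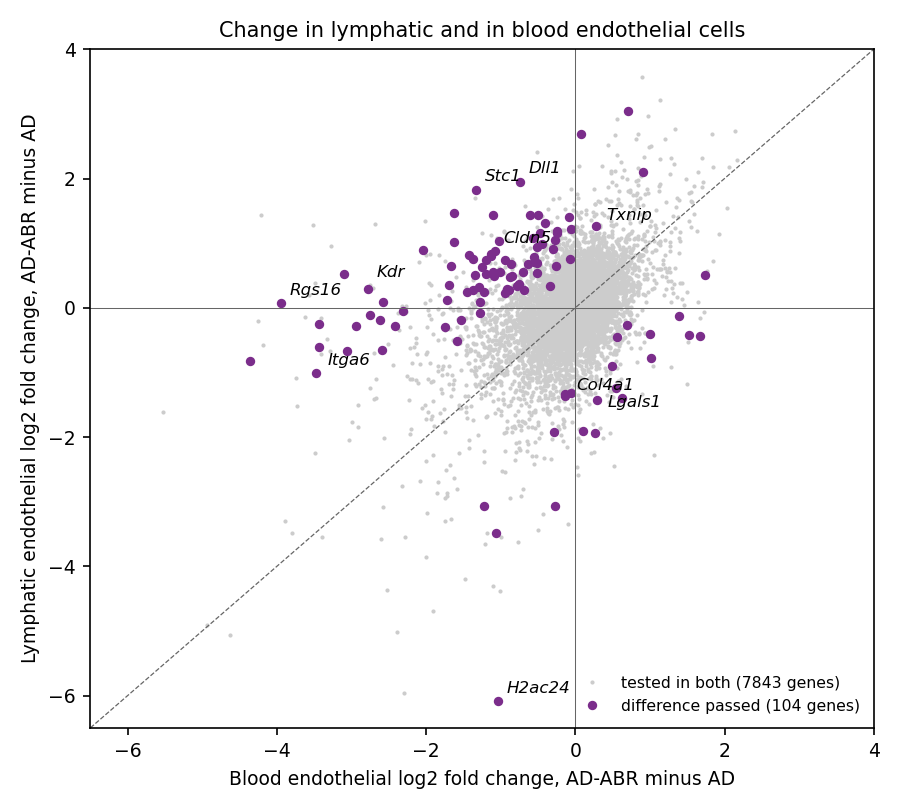
Log2 fold change (AD-ABR minus AD) in blood endothelial cells (horizontal) against lymphatic endothelial cells (vertical) for 7843 genes tested in both; 34 genes at 0 in AD-ABR members are left out, 4 lie outside the axes, and the dashed line marks equal change. Purple points passed the test of the difference (104 genes), among them Rgs16, Kdr, Itga6 and Cldn5, which fell in blood endothelial cells.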

How the data were processed

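The files hold UMI counts per gene and cell barcode, deposited as 10x matrices of 55357 genes. The submitters' processing notes name STAR, Cell Ranger 6.0, Seurat 4.0 and the build GRCm38, whereas the matrix headers, per the file headers, name Cell Ranger 7.1.0; which version made the counts is not settled. Groups came from the sample labels.

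Cells were kept and chosen as the report states, with Python 3.11.15. The members and gene lists were chosen with earlier results of these data known. Raw counts were summed per library and cell type, 2 libraries a group, and tested with edgeR 4.0.16 (R 4.3.3; filterByExpr with a minimum count of 10, TMM, glmQLFit and glmQLFTest, AD-ABR minus AD, without a replicate block). P-values were adjusted by Benjamini-Hochberg over all genes tested, with a threshold of 0.05, and the SE given is the absolute log2 fold change over √F. The difference between cell types was an interaction term. CPM scale each UMI sum to a common total. Shares were compared by the exact permutation test (6 arrangements), with exact 95% binomial intervals, which cover counting error only. The named genes are the 12 largest and 12 smallest log2 fold changes among called genes, leaving out the rule's genes and those with a higher mean CPM in the other kept cells of the group where they are higher, up to 4 per list by lowest p, and the 8 of lowest p for the difference; a few others were named after their values were seen.

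Alternatives were DESeq2 1.42.0, DESeq2 size factors in edgeR, no filter on low counts, each library left out, a replicate block, 1 or 3 UMIs in the rule, no Rn18s-rs5, thinning to 3000 UMIs and removal of the cells with the highest Scrublet scores, at 0.8% per 1000 cells. Members with 2 or 3, or with all 3, of the lymphatic genes were added after seeing the data. The test was tried on simulated data first.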

Additional observations from a re-analysis of the deposited data

Results flagged for a closer look

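The change in lymphatic endothelial cells differed from that in blood endothelial cells, by the test of the difference in edgeR with Benjamini-Hochberg adjustment, for 115 genes. The log2 differences included 3.89 for Rgs16, 3.04 for Stc1, 3.02 for Kdr, 2.78 for Itga6, 2.64 for Dll1, 2.56 for Zfp385a, 2.27 for Krt80, 1.96 for Cldn5 and 1.13 for Nbl1, where the lymphatic change was the higher one. The lymphatic change was the lower one for Lgals1, at −1.79, and for H2ac24, at −5.07, which had 2 UMIs in AD-ABR members. The fitted differences of H1f5 (−9.66), Ube2c (−9.61), Pclaf (−9.17) and Prc1 (−8.60) depend on the prior count, because AD-ABR members had no UMI of these genes, and are no measure of size.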

How the results depend on the processing

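The count of genes called in the members was 102, and 67 with DESeq2's Wald test, 390 with no filter on low counts, 32 with doublets removed and 24 with members thinned to 3000 UMIs, where 3798 genes were tested. Leaving out 1 library gave 148 to 387, with the remaining library of its group assumed to vary like the others. With the replicate block it was 127; the numbers did not pair the libraries (correlation of same-numbered deviations 0.037), and the block ended the calls of Cp and Fxyd6 (adjusted p = 0.0535 and 0.0579) and gave that of Ccl21a (0.0399), changing no other call among the 33 genes followed; 91 of the 102 called genes remained called. With 1 UMI in the rule it was 108, of which 27 were also among the 102. Blood endothelial cells had 991 calls, 2084 with no filter and 284 to 2536 with 1 library left out. The difference had 115 calls, 53 with DESeq2, 345 with no filter, 216 for members with all 3 lymphatic genes and 35 to 359 with 1 library left out. The log2 ratio of the share of kept cells was −2.24 and of endothelial cells −2.19, and −1.57 and −1.46 with 1 UMI in the rule; the other settings gave −2.56 to −2.04 and −2.68 to −1.82, and leaving out 1 library gave −2.57 to −1.83 and −2.60 to −1.64. Of the named genes, Lyve1 changed sign without AD-ABR replicate 1 (0.031, and −0.77 without AD-ABR replicate 2) and Vcam1 with 1 UMI in the rule (0.16). The cause was not tested. With doublets removed, 14 of the 33 genes followed kept their side of the threshold, 13 lost the call and 6 could not be fitted. With 1 UMI in the rule, 10 of the 33 kept their side, 22 lost the call and Vcam1 changed sign. The AD-ABR members are 57 cells, which limits every comparison.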
